A study of Mus musculus with 8 samples.

Results

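The Zic genes are a family of zinc finger transcription factor genes, and 4 of them, Zic1, Zic2, Zic4 and Zic5, were measured in cells sorted from mouse medulloblastomas by a Sox2 reporter. They were chosen by gene name, with earlier results of these data known, and are 4 of the 22180 genes tested. The tumours came from mice heterozygous for Patched1, in which overactive Hedgehog signalling drives such cerebellar tumours, on a CD1 background crossed to B6 parents that carry the Sox2eGFP reporter. Every mouse had been given 3 Gy of ionizing radiation at birth, and tumours were taken at more than 70 days of age, when signs of a brain tumour appeared. Blood cells were removed by their surface proteins CD45 and Ter119, and flow sorting on eGFP then gave Sox2-positive and Sox2-negative cells. Each fraction was measured on 4 arrays, and each array held RNA pooled from 3 tumours. Both fractions thus share the Patched1 allele, the radiation and the reporter, and they are compartments of tumours, with no normal cerebellum beside them.

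Zic proteins bind DNA through a run of zinc fingers that resembles that of the Gli proteins, the transcription factors of Hedgehog signalling. The name stands for zinc finger of the cerebellum, and Zic1 and Zic2 are known in mice as factors of granule neuron progenitors, in which Hedgehog-driven medulloblastoma is known to start, and of the granule neurons that they form. Zic1 and Zic4 are neighbours on chromosome 9, and their joint loss in humans has been linked to Dandy-Walker malformation, a defect of the cerebellum. Zic2 and Zic5 are a second pair on chromosome 14. Loss of ZIC2 in humans causes holoprosencephaly, a failure to divide the forebrain, and loss of Zic5 in mice disturbs neural tube closure and neural crest formation.

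All 4 genes were lower in Sox2-positive cells, and none was lost from them. Zic2 kept 46.9% of its Sox2-negative level, Zic1 55.5%, Zic5 65.2% and Zic4 70.5%. In the limma test across all genes 4 of 4 were called lower and 0 higher. Of all 22180 genes tested, 8.47% were called in either direction, 2.52% lower and 5.96% higher. The median log2 difference of the 4 genes, Sox2-positive minus Sox2-negative, was -0.73, beside a median of -0.03 over all genes. A pool of cells cannot tell fewer cells with Zic RNA from less Zic RNA in each cell.

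The start regions of the Zic genes are shown because all 4 members were lower in Sox2-positive cells and lie in pairs. RefSeq windows (build GRCm38.p6) of 300 bases, from 250 before to 50 after the start, were held for 3 of the 4 genes. The Zic1 window is chr9:91365719-91366018 on the minus strand, that of Zic4 is chr9:91368722-91369021 on the plus strand, and that of Zic5 is chr14:122465609-122465908 on the minus strand. From these starts Zic1 and Zic4 point away from each other, with 3204 bases between them. The annotated spans of both genes overlap, so the windows do not hold every annotated start of this pair. Each window is printed 5′ to 3′ in the direction of its gene, and capitals mark motif matches.
Zic1: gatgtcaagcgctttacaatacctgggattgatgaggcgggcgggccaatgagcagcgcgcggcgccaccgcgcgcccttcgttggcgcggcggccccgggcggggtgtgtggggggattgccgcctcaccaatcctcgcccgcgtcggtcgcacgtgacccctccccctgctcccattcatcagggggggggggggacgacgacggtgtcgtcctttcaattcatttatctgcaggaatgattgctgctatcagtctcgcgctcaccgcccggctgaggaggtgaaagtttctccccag
Zic4: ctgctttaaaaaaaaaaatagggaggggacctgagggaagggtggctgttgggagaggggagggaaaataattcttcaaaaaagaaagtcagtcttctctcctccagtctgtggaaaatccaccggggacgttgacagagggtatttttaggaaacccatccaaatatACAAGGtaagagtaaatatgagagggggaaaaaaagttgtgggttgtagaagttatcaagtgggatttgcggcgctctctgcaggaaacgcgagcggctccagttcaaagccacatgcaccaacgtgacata
Zic5: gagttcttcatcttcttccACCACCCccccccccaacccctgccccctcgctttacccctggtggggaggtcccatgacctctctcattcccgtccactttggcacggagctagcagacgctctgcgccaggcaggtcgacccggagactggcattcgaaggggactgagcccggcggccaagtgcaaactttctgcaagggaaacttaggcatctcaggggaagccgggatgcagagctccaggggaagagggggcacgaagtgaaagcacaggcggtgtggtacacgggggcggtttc

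Short motifs were searched on both strands of these windows. The capitals in the Zic5 window, bases 20 to 26, spell ACCACCC, the core of the site that Gli proteins bind and that Zic proteins can also bind. This core occurred in 4.61% of all 32851 windows of the same length. The capitals in the Zic4 window, bases 169 to 174, match ACAANG, a core of Sox sites, which 41.2% of all windows hold. The Zic1 window held no match to either. No Zic window matched CAGCAGG, a core of Zic sites, or CAGNTG, an E-box form bound by Atoh1 and its relatives, which 10.5% and 51.4% of all windows hold. By base composition the windows of Zic1 (65.3% G or C) and Zic5 (62.7%) lay above the median of all windows (52.7%), and that of Zic4 (46.0%) lay below it. A match of this length describes the letters only.

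Values below are log2 values as deposited, 1 per probe set and array, so a difference of 1 is a 2-fold difference in signal. They are compared between arrays and not between genes, since probe sets differ in how brightly they report. Error is the SD over 4 arrays, each a pool, and the number of arrays limits the precision. Sox2 itself, which checks the sort, was at 5.67, 6.07, 6.36 and 5.68 in Sox2-positive pools 1 to 4 and at 4.05, 4.60, 4.49 and 4.04 in the Sox2-negative pools (log2 difference 1.65, limma adjusted p = 2.53e-05). Because the table gives no detection call, the upper quartile of 1394 genes for smell and pheromone receptors (5.80) serves as a guide to dim values, since tumour cells have no known use for them. By it Sox2 was dim on all Sox2-negative arrays and in Sox2-positive pools 1 and 4, so that its difference can be too small. Atoh1, which specifies granule neuron progenitors, lay above that guide on every array, at 8.54 to 8.96 in Sox2-positive and 8.97 to 10.07 in Sox2-negative cells.

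Zic2 had the largest mean fall of the family. Its values were 8.60, 8.24, 8.60 and 8.63 in Sox2-positive pools 1 to 4 and 9.61, 9.75, 9.69 and 9.38 in Sox2-negative pools 1 to 4. Every Sox2-positive array lay below every Sox2-negative array, with a gap of 0.76 between the nearest values of the fractions, and Sox2-positive pool 2 was the lowest. The means were 8.52 ± 0.18 and 9.61 ± 0.16 (SD, n = 4 each). The gene fell by 1.09 on the log2 scale (SE 0.11, 95% interval -1.34 to -0.85, limma adjusted p = 2.73e-05). Ranked by log2 difference, this was the fall in place 12 of all 22180 genes.

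Zic1 was at 9.72, 9.54, 9.72 and 9.65 in the Sox2-positive pools and at 10.51, 10.42, 10.79 and 10.29 in the Sox2-negative pools. The Sox2-positive arrays lay close together (9.65 ± 0.08), the Sox2-negative ones were more spread (10.50 ± 0.21, with pool 3 the highest), and the fractions did not overlap. Zic1 fell by 0.85 (SE 0.11, 95% interval -1.08 to -0.62, limma adjusted p = 0.000164), in place 39 of all genes. In Sox2-positive cells its lowest array, at 9.54, still lay well above the guide to dim values.

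Zic5, the neighbour of Zic2, was at 7.64, 7.37, 7.48 and 7.58 in the Sox2-positive pools and at 8.11, 8.28, 8.24 and 7.91 in the Sox2-negative pools. The fractions did not overlap, but the gap between the nearest values, 0.27, was smaller than for Zic1 (0.58) or Zic2. The fall was 0.62 (means 7.52 ± 0.12 and 8.13 ± 0.17, limma adjusted p = 0.00152), in place 147. A second, dimmer probe set of Zic5 had Sox2-positive values of 4.36 to 4.92 and Sox2-negative values of 4.77 to 5.31, which overlap and all lie below the guide to dim values. Its log2 difference of -0.43 did not pass the test (limma adjusted p = 0.198 over all 41345 probe sets).

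Zic4, the neighbour of Zic1, was at 6.56, 6.28, 6.52 and 6.48 in the Sox2-positive pools and at 6.94, 7.19, 6.88 and 6.85 in the Sox2-negative pools. Again no Sox2-positive array reached a Sox2-negative one. The fall was 0.51 (means 6.46 ± 0.12 and 6.97 ± 0.16, limma adjusted p = 0.00599), in place 254. Zic4 lay nearest to the guide to dim values, and a fold near that level can be understated. The complete separation that all 4 genes showed in this direction was found for 6.07% of all genes.

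**Figure D1:**
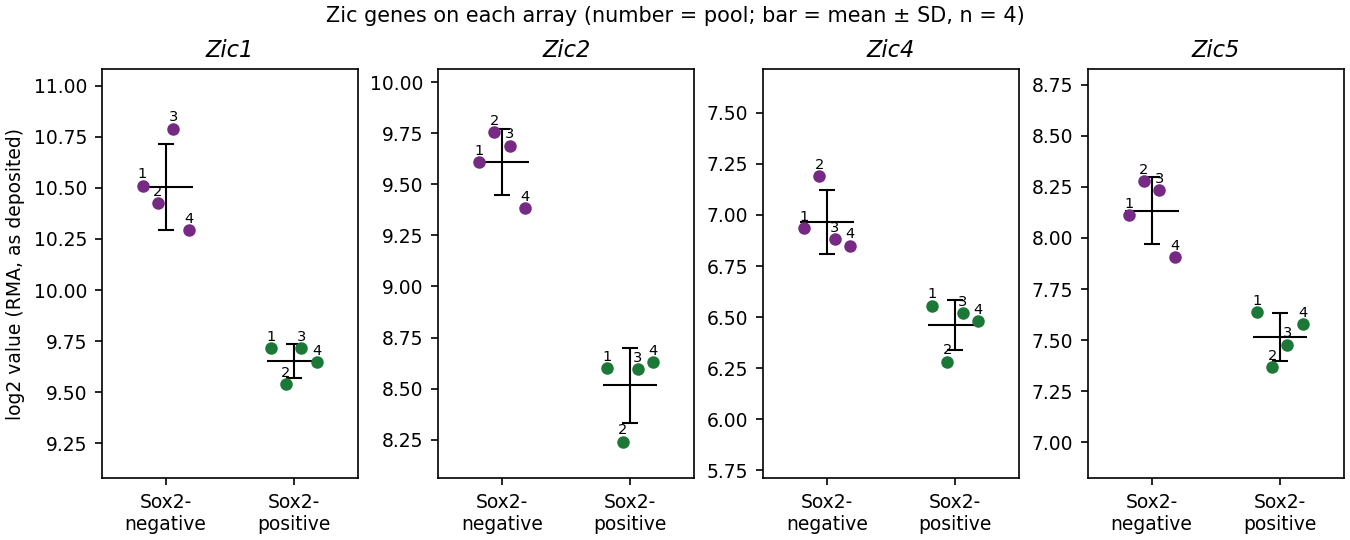
Log2 values (RMA, as deposited) of Zic1, Zic2, Zic4 and Zic5 on each of the 8 arrays; each axis spans 2 log2 units, points are arrays numbered by pool, and bars give the mean ± SD (n = 4). In every panel all Sox2-positive arrays lie below all Sox2-negative arrays, and Sox2-positive pool 2 is the lowest.

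In each fraction the array with the lowest Zic values was shared by the 4 genes, while the array with the highest values was not shared by all 4. Sox2-positive pool 2 was the lowest array for all 4, and the mean of the 4 log2 values was 7.86 there against 8.08 to 8.13 in the other Sox2-positive pools. Among the Sox2-negative arrays pool 4 was the lowest for all 4 genes (mean 8.61, against 8.79 to 8.91 in the others). The mean level of 10 oligodendrocyte progenitor markers was highest in Sox2-positive pool 2, at 9.61 against 8.99 to 9.33 in the other Sox2-positive pools. In Sox2-negative pool 4 that mean level was the lowest of its fraction, at 6.10 against 6.11 to 6.19. The part of these markers in the Zic values was not tested.

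Between arrays of the same pool number all 4 genes fell in all 4 pools. Any matching of the arrays would give this, since the fractions did not overlap. The log2 differences of Zic2 were -1.01, -1.51, -1.09 and -0.76 in pools 1 to 4, and those of Zic1 were -0.79, -0.89, -1.07 and -0.65. Those of Zic5 were -0.48, -0.91, -0.76 and -0.33, and those of Zic4 were -0.38, -0.91, -0.36 and -0.37. Pool 2 thus gave the largest fall for Zic2, Zic4 and Zic5, and pool 3 for Zic1. Without Sox2-positive pool 2 the falls of Zic2, Zic1, Zic5 and Zic4 stayed past the test, as they did without any other single array.

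**Figure D2:**
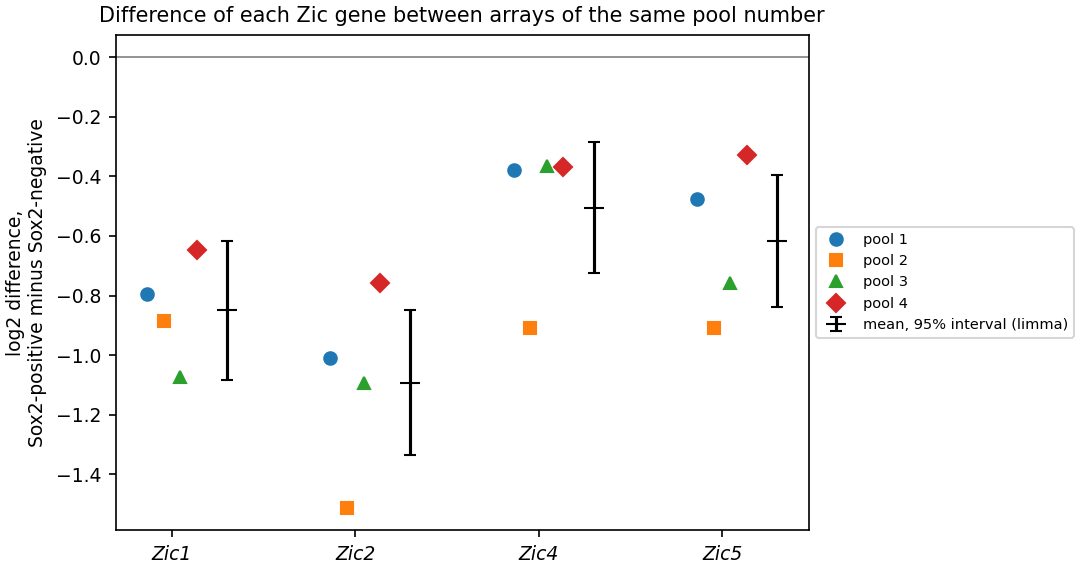
Log2 difference (Sox2-positive minus Sox2-negative) of each Zic gene between arrays of the same pool number, with the mean and its 95% interval from limma beside the points. All 16 points lie below 0, from -0.33 (Zic5, pool 4) to -1.51 (Zic2, pool 2). Any matching of the arrays would place all points below 0, since the fractions do not overlap.

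Whether the genes fell by different amounts was tested on the difference between members on each array, for the 6 pairs. The Zic2 value exceeded that of Zic4 by 2.06 ± 0.08 in Sox2-positive and by 2.64 ± 0.12 in Sox2-negative arrays, and that of Zic5, its neighbour, by 1.0 ± 0.11 and 1.47 ± 0.02 (SD, n = 4). For both pairs these differences did not overlap between the fractions (exact permutation p = 0.0286 each, the smallest that 4 against 4 arrays allow). Adjusted over the 6 pairs both gave p = 0.0857 (exact permutation test, two-sided), so neither passed. Since both were already at the smallest p, they could pass only if enough of the other pairs reached it too. With this number of arrays the adjusted test therefore cannot decide whether these 2 pairs differ. The log2 difference of Zic1 lay 0.34 below that of its neighbour Zic4 and 0.23 below that of Zic5, and that of Zic2 lay 0.24 below that of Zic1 (exact permutation adjusted p = 0.0857, 0.103 and 0.0857). Those of Zic4 and Zic5 were the closest, 0.11 apart (exact permutation adjusted p = 0.229). After quantile normalization, and without Sox2-negative pool 2, both Zic1 and Zic2 fell further than Zic4 and Zic5 in the same exact permutation test (adjusted p = 0.0429 for each of the 4 pairs). The order Zic2, Zic1, Zic5, Zic4 is thus a description of the means, and over all 8 arrays as deposited no pair differed past the test.

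Of 6 tested genes that lie beside or between the Zic genes, 4 were not called, and Gm5089 and Clybl were called lower. Among all genes tested, 2.52% were called lower. The noncoding RNA genes Gm40546, Gm29478 and Gm33769, each the nearest gene of any type on 1 side of a pair, were not among the genes tested. On chromosome 14 the noncoding RNA gene 2610035F20Rik lies between Zic5 and Zic2. It was at 6.84, 6.53, 6.54 and 6.95 in the Sox2-positive pools and at 6.62, 7.10, 7.01 and 6.89 in the Sox2-negative pools, so the fractions overlapped (log2 difference -0.19, 95% interval -0.46 to 0.08, limma adjusted p = 0.452). On the far side of Zic2 the metabolic enzyme gene Pcca differed by -0.17 (limma adjusted p = 0.441). On the far side of Zic5 the noncoding RNA gene Gm5089 fell by 0.42 (limma adjusted p = 0.0325). The mitochondrial enzyme gene Clybl, whose span overlaps that of Gm5089, fell by 0.49 (limma adjusted p = 0.043). Both calls ended when all probe sets were fitted, and that of Clybl also with array weights. Leaving out 1 array ended the call of Gm5089 for pools 2 and 4 of the Sox2-positive and pools 1, 2 and 4 of the Sox2-negative cells, and that of Clybl for any array except Sox2-negative pool 1 (limma adjusted p = 0.0537 to 0.103 and 0.0565 to 0.11).

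Beside the pair on chromosome 9, the nearest protein-coding genes were Tbc1d2b and Plscr5. Their log2 differences were -0.09 (95% interval -0.45 to 0.28) and -0.07 (-0.27 to 0.13), and neither passed (limma adjusted p = 0.838 and 0.757). That of Tbc1d2b turned positive (0.09) without Sox2-negative pool 2. The difference between a Zic gene and its flanking genes was not tested. The annotated spans of Zic1 and Zic4 overlap, and the strand that the probes read is not given in the sources used here.

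**Figure D3:**
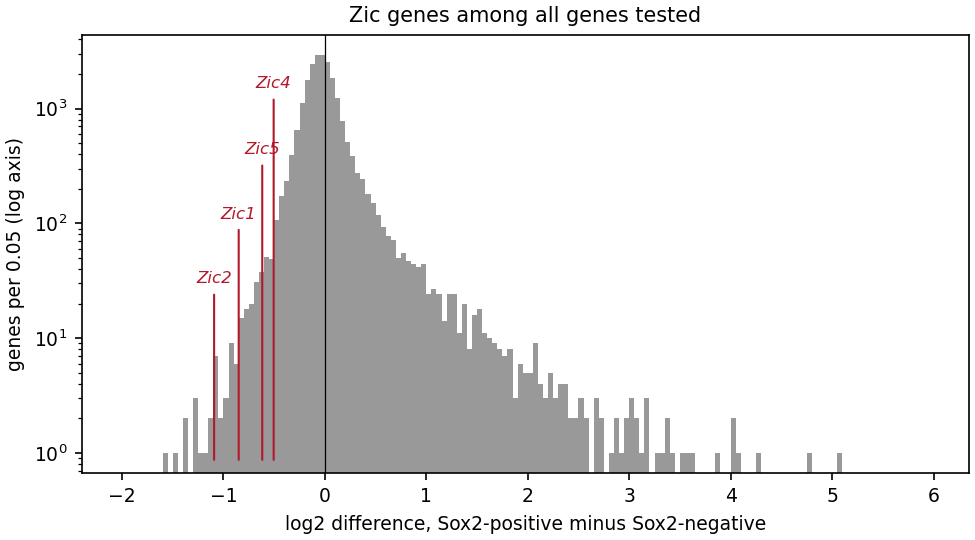
Histogram of the log2 differences (Sox2-positive minus Sox2-negative) of all 22180 genes in steps of 0.05, with a log axis for the number of genes and red lines at the 4 Zic genes. The Zic genes lie at -1.09, -0.85, -0.62 and -0.51, in the lower tail of a distribution whose median is -0.03.

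The closest relatives of the Zic proteins by their zinc fingers are the Gli and Glis factors, and 2 of 6 of these genes were called lower and 0 higher (median log2 difference -0.08). Gli2, the main activator of Hedgehog signalling, was at 7.36, 7.06, 7.21 and 7.51 in the Sox2-positive pools and at 7.96, 8.17, 7.51 and 7.81 in the Sox2-negative pools. The highest Sox2-positive value and the lowest Sox2-negative one nearly met, and the gene fell by 0.58 (SE 0.14, limma adjusted p = 0.0176). Gli1, a target and effector of the pathway, fell by 0.57 (SE 0.16, limma adjusted p = 0.0461). These calls were less firm than those of the Zic genes. That of Gli2 was lost on leaving out pool 2 or 3 of the Sox2-positive cells or pool 1 of the Sox2-negative cells (limma adjusted p = 0.053 to 0.0648), and that of Gli1 without any of 6 arrays (limma adjusted p = 0.0581 to 0.147), all but Sox2-positive pool 1 and Sox2-negative pool 3. Both calls were also lost when all probe sets were fitted, and that of Gli1 with array weights. Gli3, which acts mainly as the repressor of the pathway, stood at a log2 difference of -0.14 (adjusted p = 0.59 by limma). Glis1, Glis2 and Glis3, named after their values were seen, lay between -0.02 and 0.05.

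Genes listed as factors of the granule lineage moved mostly in the direction of the Zic genes. Of 20 measured, 13 were called lower, 1 higher and 6 were not called, with a median log2 difference of -0.65. Nhlh1 and Nhlh2, basic helix-loop-helix factors of young neurons, fell by 1.35 and by 1.13, and Mab21l1 fell by 1.16 (limma adjusted p = 0.000141, 0.000146 and 0.000388). Atoh1 fell by 0.71 (limma adjusted p = 0.0278), but was not called when all probe sets were fitted. It was no longer called when any 1 of Sox2-positive pools 1 to 3 or of Sox2-negative pools 1 and 4 was left out (limma adjusted p = 0.0543 to 0.0868). Etv1, an ETS factor, was the higher member, at 7.06, 7.77, 7.81 and 7.40 against 6.10, 6.13, 6.16 and 6.18 (2.58-fold, limma adjusted p = 3.02e-05). This list was put together with the fall of several of its members known.

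**Figure D4:**
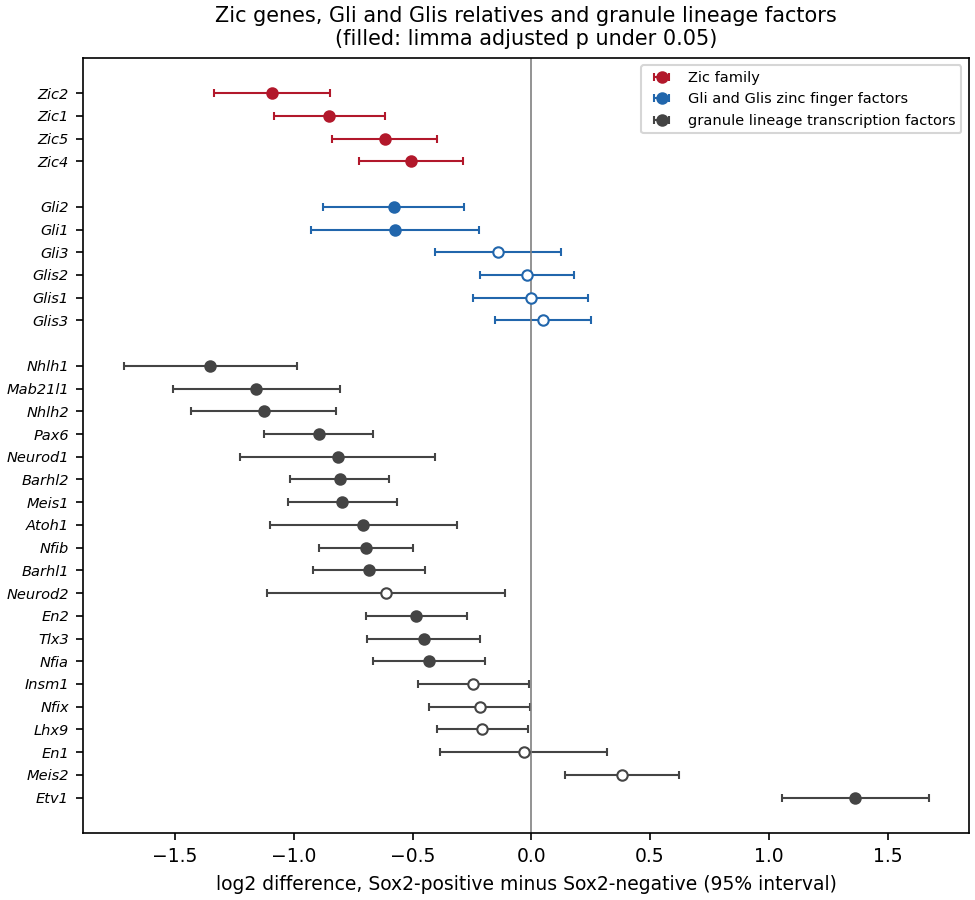
Log2 differences (Sox2-positive minus Sox2-negative) with 95% intervals from limma for the 4 Zic genes, 6 Gli and Glis genes and 20 genes listed as granule lineage factors. Filled points had an adjusted p under 0.05. All 4 Zic points are filled and below 0, as are 2 of the 6 Gli and Glis points and 13 of the 20 granule lineage points, and Etv1 is the filled point above 0.

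Genes of granule neuron maturation were divided. Of 16, 6 were called lower, 1 higher and 9 were not called (median -0.32). The axonal adhesion gene Cntn2 fell by 1.49, the growth cone gene Stmn2 fell by 0.94 and Rbfox3, which encodes the neuronal nuclear antigen NeuN, fell by 0.73 (limma adjusted p = 0.000169, 0.0101 and 0.000296). Chn2, which encodes a Rac-regulating protein, was 1.71-fold higher (limma adjusted p = 0.00599). The call of Stmn2 ended when all probe sets were fitted (limma adjusted p = 0.0651).

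Zic genes are also known for roles in the dorsal neural tube and in midline development, and most genes listed for these settings were not called. Of all genes tested, 8.47% were called in either direction, 2.52% lower and 5.96% higher. Means below the guide to dim values were found for 7 of 15 dorsal midline and 6 of 14 holoprosencephaly genes, where a change can be missed. Of 15 dorsal midline and roof plate genes, 2 were called higher, 1 lower and 12 were not called (median 0.02). Bmp7 and Bmp4, secreted dorsalizing signals, were 4.67-fold and 2.11-fold higher, while Olig3, a factor of dorsal progenitors, fell by 0.81 (limma adjusted p = 5.42e-06, 0.00406 and 0.000595). All Sox2-negative values of Bmp4, 5.20 to 5.74, lay below the guide to dim values, so its fold can be too low. The values of Bmp7 were 7.96, 9.05, 8.64 and 8.63 in the Sox2-positive pools and 6.48, 5.94, 6.48 and 6.48 in the Sox2-negative pools. Of 14 genes linked to holoprosencephaly besides Zic2, 3 were called lower and 0 higher (median -0.09). These were the Hedgehog co-receptor gene Boc, Gli2 and the homeobox repressor gene Tgif1, which fell by 0.65, by 0.58 and by 0.45.

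The genes whose pattern over the 8 arrays was most like that of each Zic gene were found by the root mean squared difference between profiles, each centred on its own mean, among 11561 genes. For Zic1 these were Rcor2, a corepressor of neuronal genes, then Nedd4l, a ubiquitin ligase, Map1b, a microtubule-binding protein, the acetylcholine receptor subunit gene Chrnb2, and Clvs1, at root mean squared differences of 0.0336 to 0.0883 log2 units. The nearest of them, Rcor2, was at 6.81, 6.63, 6.81 and 6.68 in the Sox2-positive pools and at 7.51, 7.47, 7.84 and 7.32 in the Sox2-negative pools, so that it rose and fell over the arrays as Zic1 did. For Zic2 they were the somatostatin receptor gene Sstr2, Nhlh2, the neuronal splicing factor gene Srrm4, Smpd3 and Heg1 (0.114 to 0.153). For Zic5 they were Sufu, a negative regulator of Gli proteins, Abtb1, Scarna2, the calcium channel gene Cacna1b and Btg1, an antiproliferative gene (0.0652 to 0.0928). For Zic4 they were Tll1, Vps37b, the receptor gene Olfr447, Pde3b and Nol4 (0.0576 to 0.0727). Olfr447 belongs to the class of receptor genes behind the guide to dim values, but it lay above that guide, at 6.92 to 7.21 in Sox2-positive and 7.34 to 7.78 in Sox2-negative cells. It was called lower by 0.41 (limma adjusted p = 0.0357). That call was lost on leaving out any 1 of Sox2-positive pools 2 to 4 or of Sox2-negative pools 1 and 2. It also ended when all probe sets were fitted.

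By the same measure the Zic genes were not each other's nearest. Among the genes nearest to Zic1, Zic5 stood in place 40, Zic2 in place 46 and Zic4, its neighbour on the chromosome, in place 162. Among those nearest to Zic2, Zic1 stood in place 14, its neighbour Zic5 in place 61 and Zic4 in place 127. Zic4 stood in place 16 for Zic5, and Zic5 in place 36 for Zic4. Both chromosomal pairs, Zic1 with Zic4 and Zic2 with Zic5, were 0.246 log2 units apart, against 0.106 for Zic4 with Zic5, the closest pair of the family. The measure weighs the size of the fall, and genes with a small fall have many others near them.

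Markers of other cell types moved beside the Zic genes. All 10 oligodendrocyte progenitor markers were called higher in Sox2-positive cells (median log2 difference 3.20), with a mean level of 8.99 to 9.61 against 6.10 to 6.19. Ptprz1, Tnr and Olig1 were 27.1-fold, 16.3-fold and 16.1-fold higher, and Olig2 was 10.9-fold higher. The Sox2-negative means of these 4 genes, 5.74 to 5.84, lay close to the guide to dim values, so these folds can be too low and do not rank the genes. Of 10 astrocyte and radial glia markers 6 were called higher, 0 lower and 4 were not called. Their mean level was 7.38 to 7.98 against 6.49 to 6.72, and Fabp7, Slc1a3 and Hepacam led the higher ones. The part of these cell types in the fall of the Zic genes was not tested.

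Few markers of other cells that could be present in the sort were called, and many were dim. Of 12 markers of meninges and mural cells, 0 were called by limma and 0 had an unadjusted p under 0.05, and their mean level was 5.39 to 5.48 against 5.46 to 5.54 (largest difference Igf2, -0.27). Meninges are known to express Zic1, and 7 of these 12 markers had a mean below the guide to dim values. So did 3 of 4 for unipolar brush cells, 8 of 11 for Purkinje cells and interneurons, 2 of 7 for choroid plexus and ependyma, 6 of 8 for endothelial cells and 7 of 9 for microglia and blood, and a change at such levels can be missed. For unipolar brush cells 0 of 4 were called by limma and 1 had an unadjusted p under 0.05 (mean level 5.02 to 5.35 against 5.25 to 5.49; Otx2, -0.65). For choroid plexus and ependyma these counts were 0 and 2 of 7 (6.15 to 6.36 against 6.39 to 6.71; Ttr, -1.05). With the pool number as a block, Otx2 and Ttr were called lower (limma adjusted p = 0.0111 and 0.00504). Ttr was also called without Sox2-negative pool 1 (limma adjusted p = 0.00459) and Otx2 without Sox2-positive pool 1 (0.0414). Of 11 markers of Purkinje cells and inhibitory interneurons Car8 and Gad1 were higher and Lhx1 was lower, at mean levels of 5.24 to 5.37 against 5.25 to 5.32. Gad1 was dim in both fractions (5.16 and 4.73), and its call was lost on leaving out any 1 of Sox2-positive pools 2 to 4 or of Sox2-negative pools 1 and 3 (limma adjusted p = 0.0691 to 0.0981). The call of Gad1 also ended when all probe sets were fitted. For endothelial cells 0 of 8 were called by limma and 1 had an unadjusted p under 0.05 (5.14 to 5.30 against 5.20 to 5.40, with Tek at -0.28). For microglia and blood cells, which the preparation depleted, these counts were 0 and 1 of 9 (5.54 to 5.65 against 5.51 to 5.74; Ptprc, -0.23).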

How the data were processed

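RNA of the sorted pools was hybridised to Affymetrix arrays, 4 per fraction. The authors deposited 1 log2 value per probe set and array. The submitters' processing notes name RMA and Affymetrix Expression Console 1.2.0.20. RMA gives the probe signals of all arrays 1 common distribution, which hides a difference in total RNA per cell, and it shrinks folds of dim genes. This step comes before probes are summarised, so the deposited values need not share 1 distribution. That the scale is log2 follows from the range of the values, 2.51 to 13.6. The genome build is not given in the sources used here. Of 41345 probe sets, 23521 had 1 gene symbol in the platform annotation, 1814 several and 16010 none. The single-symbol probe set with the highest mean over 8 arrays stood for each of 22180 genes. Of the 23521 single-symbol probe sets, 23328 matched a RefSeq gene table (GRCm38.p6), used for names and gene order.

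All genes entered 1 model in limma 3.58.1, run in R 4.3.3 (functions lmFit and eBayes, group only, two-sided, Benjamini-Hochberg over all genes, threshold 0.05), a procedure tested on simulated data. Exact permutation tests compared members. The genes named were the members, Sox2, Atoh1, Gli1, Olig2, up to 3 called genes per direction from each of 14 lists (or the largest difference where none was called), the 5 nearest profiles of each member at or above the guide to dim values, and flanking genes. Other genes are named only where said. The members and lists were chosen with earlier results of these data known. The p-values measure the spread between pools, not single animals.

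Pool numbers in the labels run from 1 to 4 in each fraction. The labels do not say that equal numbers share tumours, so the main test used the group only. Pairing by number entered as the replicate block. Deviations from the group means correlated at 0.164, 0.114, 0.177 and 0.241 between arrays of equal number. The highest correlation between unequal numbers was 0.161, above that of pool 2, so these values do not settle the pairing. Alternatives were the replicate block, a variance trend, a robust prior, array weights, quantile normalization, the mean of probe sets, dim genes left out, all probe sets fitted and each array left out.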

Additional observations from a re-analysis of the deposited data

Results flagged for a closer look

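A total of 7 values stood apart from the other 3 arrays of their fraction, by a gap to the nearest value, divided by the range, above Dixon's 95% critical value, among 124 groups of 4 examined. Chance flags about 1 in 20 groups. Zic2 was lower in Sox2-positive pool 2 (8.24) than in the others (8.60 to 8.63; ratio 0.917). In the same array the receptor gene Olfr447 was at 6.92 against 7.17 to 7.21 (0.867). Sox2-positive pool 3 held Olig2 at 9.85 against 9.02 to 9.15 (0.837), Ttr at 8.28 against 7.09 to 7.26 (0.861) and Clybl at 7.39 against 7.19 to 7.21 (0.898). Bmp7 was at 5.94 in Sox2-negative pool 2 against 6.48 in each of the others (0.989). Ptprc, a marker of white blood cells, was at 4.66 in Sox2-positive pool 4 against 4.39 to 4.42 (0.891), all dim values.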

How the results depend on the processing

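The falls of Zic1, Zic2, Zic4 and Zic5 kept their direction and stayed past the threshold in all 64 values from 16 alternatives. Their ranges were -0.93 to -0.75 for Zic1, -1.19 to -1.001 for Zic2, -0.54 to -0.43 for Zic4 and -0.69 to -0.52 for Zic5, with limma adjusted p of at most 0.00281, 0.000903, 0.0291 and 0.0113, each highest when all probe sets were fitted. With the replicate block the adjusted p were 0.000119, 8.05e-05, 0.0112 and 0.00294, so the pairing changed no call of these genes. It changed those of Otx2 and Ttr, given above, and of no other named gene, and 2340 genes were called in all. The number of lower genes, 558, was 847 with quantile normalization, 361 with all probe sets fitted and 309 to 591 with 1 array left out. It was 309 without Sox2-positive pool 2, 361 without Sox2-positive pool 4 and 357 without Sox2-negative pool 1. The share of calls that were higher was 70.3%, against 60.2% with quantile normalization. The differences between members, Sox2-positive minus Sox2-negative, passed with quantile normalization for Zic1 minus Zic4 (-0.38), Zic1 minus Zic5 (-0.24), Zic2 minus Zic4 (-0.64) and Zic2 minus Zic5 (-0.50). Without 1 array they ran from -0.45 to -0.22, -0.31 to -0.17, -0.62 to -0.53 and -0.51 to -0.43, and passed without Sox2-negative pool 2. With the replicate block the smallest exact permutation p that 4 pairs allow is 0.125, so none could pass. Of 908 values for 57 other named genes, 856 stayed on their side of the threshold, 47 lost the call, 4 gained it and 1 changed sign. That 1 was Tbc1d2b, which ran from -0.225 to 0.0875 with 1 array left out and was never called. The cause was not tested.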
